A study of Mus musculus with 23 samples.

Results

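The interleukin 1 family was followed here in Schwann cells (SCs) and macrophages sorted from the peripheral nerves and neurofibromas of mice, across 8 of the 22180 genes measured. The members are the agonists Il1a and Il1b, the receptor antagonist Il1rn, the decoy receptor Il1r2, the signalling receptor chains Il1r1 and Il1rap, and the ligands Il18 and Il33. They were taken by gene symbol, and 10 of the 41345 transcript clusters of the array carried these symbols, 3 of them for Il1rap. On GRCm38.p6 the genes Il1a (chr2:129299609-129310186) and Il1b (chr2:129364569-129371164) are neighbours, Il1rn lies at chr2:24336860-24351491, and the receptor genes Il1r2 (chr1:40084692-40125230) and Il1r1 (chr1:40222480-40316201) lie close together. Il1rap is at chr16:26581509-26730128, Il18 at chr9:50554700-50581841 and Il33 at chr19:29925113-29960718. Wild-type cells came from dorsal root ganglia and attached nerves of 1-month-old Nf1fl/fl mice, which carry floxed Nf1 alleles and no Cre. Mutant nerve came from Nf1fl/fl;DhhCre mice at 1 month, before tumours form, although the array labels name that tissue neurofibroma. Neurofibromas came from Nf1fl/fl;DhhCre mice at 7 months. SCs were sorted for p75 and gave 3 arrays in each of these groups, and macrophages were sorted as F4/80+;CD11b+ and gave 3, 5 and 4 arrays. The labels give a mixed C57BL/6 and BALB/c background. DhhCre deletes Nf1 in the Schwann lineage, so the macrophages are wild type for Nf1 (Nf1+/+ in the labels), and the SCs labelled Nf1-/- are a mixture of recombined and unrecombined cells. Tissue of several mice was pooled for each 1-month sort, and the authors describe 3 such sorts, fewer than the 5 mutant nerve macrophage arrays. The labels do not say whether arrays of a 1-month group came from separate pools, so p-values measure the spread between these arrays, which may be technical.

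IL-1α and IL-1β, the products of Il1a and Il1b, bind the receptor chain encoded by Il1r1, which then recruits the accessory chain encoded by Il1rap and signals through MyD88 and IRAK kinases to NF-κB. The antagonist encoded by Il1rn occupies Il1r1 without recruiting the accessory chain, and the receptor encoded by Il1r2 binds ligand but has no signalling domain. IL-1β and IL-18 are made as precursors that caspase-1 cleaves in inflammasomes, whereas IL-33 is a nuclear alarmin of stromal and barrier cells. In peripheral nerve IL-1β is best known as an early cytokine of macrophages and SCs after nerve injury.

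The arrays fell into a 1-month set and a 7-month set that differed in overall level, and the median gene was lower by 0.596 on the log2 scale (a difference of -0.596) in the universal control RNA of the 7-month set. Levels below are log2 RMA values after correction for array set. Mean differences between cell types within a tissue do not involve this correction, while their SEs do slightly, since the correction also scales the spread. Comparisons of 7-month with 1-month groups do, and the correction of each gene rests on 1 universal control array per set. No 7-month wild-type group is among the arrays, so tumour and age cannot be told apart in these comparisons. For the members that passed there, 2 results are given: the test on corrected values, which takes the shift as known, and the fit with the array set as a term, which carries the error of the shift. The latter also pools the spread of all groups of both cell types, so its SE differs for that reason too. In mutant against wild-type SCs, which lie in 1 set, the SE of Il1a was 0.14 in the former and 0.33 in the latter. That of Il1b was 0.53 and 0.47. In simulated data the test on corrected values called many unchanged genes between the sets, and the fit with the array set as a term few. The adjusted p of the test on corrected values is therefore too small for these comparisons. In the sorted populations the macrophage arrays expressed 17, 17 and 16 of 19 macrophage markers above SCs of the same tissue, and SC arrays expressed 11, 11 and 12 of 13 SC markers above macrophages. SC arrays also held 11, 11 and 10 of 12 fibroblast markers above the macrophage level in wild-type nerve, mutant nerve and neurofibroma, with summed log2 levels of 12.84 to 13.14. Ngfr, which encodes p75, averaged 4.72 to 5.03 in the SC groups and 3.84 to 4.09 in the macrophage groups. Seminal vesicle genes were high on 5 arrays (wild-type SC s2 and s3, wild-type macrophage s5 and s6, and neurofibroma SC 7m_4992 by their labels), with summed log2 levels of 8.61 to 12.21 against 4.26 to 5.03 on the others. Fewer cells of a type and less RNA per cell cannot be told apart in these bulk samples.

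The promoters of the agonists, the antagonist and Il33 are shown because these 4 genes carry most of the differences below. Each runs from 250 bases before to 50 bases after a RefSeq start (GRCm38.p6), and capitals mark TATAAA or a loose form of the NF-κB motif (GGG, any 5 bases, CC) on either strand. GAGGAA, the core of the PU.1 motif, was also searched on both strands and is not marked. Of 32851 promoters of this length 4473 held TATAAA, 16686 (50.8%) the NF-κB form and 9289 (28.3%) GAGGAA. Il1a (chr2:129309923-129310222, minus strand) and Il1b (chr2:129371090-129371389, minus strand) each hold TATAAA, at -32 and -31 from the start, and Il1a holds GAGGAA at -41. Il1rn (chr2:24336610-24336909, plus strand, the first of 3 starts) lies on the same chromosome and holds 2 matches to the NF-κB form. Il33 (chr19:29924863-29925162, plus strand, the first of 2 starts) holds TATAAA at -203 and 2 matches to GAGGAA.
Il1a: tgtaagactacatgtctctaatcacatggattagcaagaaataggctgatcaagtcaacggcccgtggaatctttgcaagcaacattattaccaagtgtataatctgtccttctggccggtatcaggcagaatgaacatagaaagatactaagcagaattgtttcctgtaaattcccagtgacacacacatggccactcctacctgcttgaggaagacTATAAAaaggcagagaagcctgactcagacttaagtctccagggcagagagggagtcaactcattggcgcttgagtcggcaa
Il1b: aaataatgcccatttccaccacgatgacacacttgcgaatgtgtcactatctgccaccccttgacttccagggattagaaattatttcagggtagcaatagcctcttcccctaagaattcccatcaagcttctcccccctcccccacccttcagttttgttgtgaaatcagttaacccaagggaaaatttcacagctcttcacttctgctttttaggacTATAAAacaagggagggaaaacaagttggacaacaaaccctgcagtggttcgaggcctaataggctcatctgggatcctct
Il1rn: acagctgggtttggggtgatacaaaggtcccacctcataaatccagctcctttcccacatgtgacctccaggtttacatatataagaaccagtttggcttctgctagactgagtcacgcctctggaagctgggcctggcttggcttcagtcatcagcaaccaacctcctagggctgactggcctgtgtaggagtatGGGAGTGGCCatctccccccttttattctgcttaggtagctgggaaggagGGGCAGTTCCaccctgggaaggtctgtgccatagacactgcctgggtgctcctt
Il33: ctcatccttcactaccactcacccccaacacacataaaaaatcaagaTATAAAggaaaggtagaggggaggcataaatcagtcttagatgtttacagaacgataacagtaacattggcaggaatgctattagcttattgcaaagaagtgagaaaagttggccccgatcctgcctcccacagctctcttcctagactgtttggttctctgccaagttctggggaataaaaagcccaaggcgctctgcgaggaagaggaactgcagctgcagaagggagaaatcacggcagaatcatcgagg
A match describes the letters of the window only.

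Il1a, Il1b and Il1rn were macrophage transcripts in all 3 tissues and Il18 at 1 month, and Il1r1 and Il33 were higher in SCs in all 3 tissues and Il1rap in wild-type nerve and neurofibroma. In wild-type nerve 7 of the 8 members differed between SCs and macrophages at an adjusted p under 0.05 and more than 2-fold, against 14% of all genes. In mutant nerve 6 did, against 13% of all genes, and in neurofibroma 6 did, against 12.4%. Il1a was 52.9-fold, 39.1-fold and 45.7-fold lower in SCs than in macrophages of wild-type nerve, mutant nerve and neurofibroma. Il1b was 44.9-fold, 61.8-fold and 24.0-fold lower in SCs. Il1rn was 49.4-fold, 54.2-fold and 16.3-fold lower. Adjusted p was at most 3.43e-08 for these 3 genes in each tissue, and no SC array reached the macrophage range. The Il1a folds rest on SC levels near the lower quartile of all genes, where no detection call was used, so they do not fix how far below macrophages the SC level lay. Il1r2 was the member without a called difference in any tissue, with log2 differences of -0.52 (SE 0.41, adjusted p = 0.357), -0.51 (SE 0.37, adjusted p = 0.348) and -1.0 (SE 0.38, adjusted p = 0.069).

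**Figure D1:**
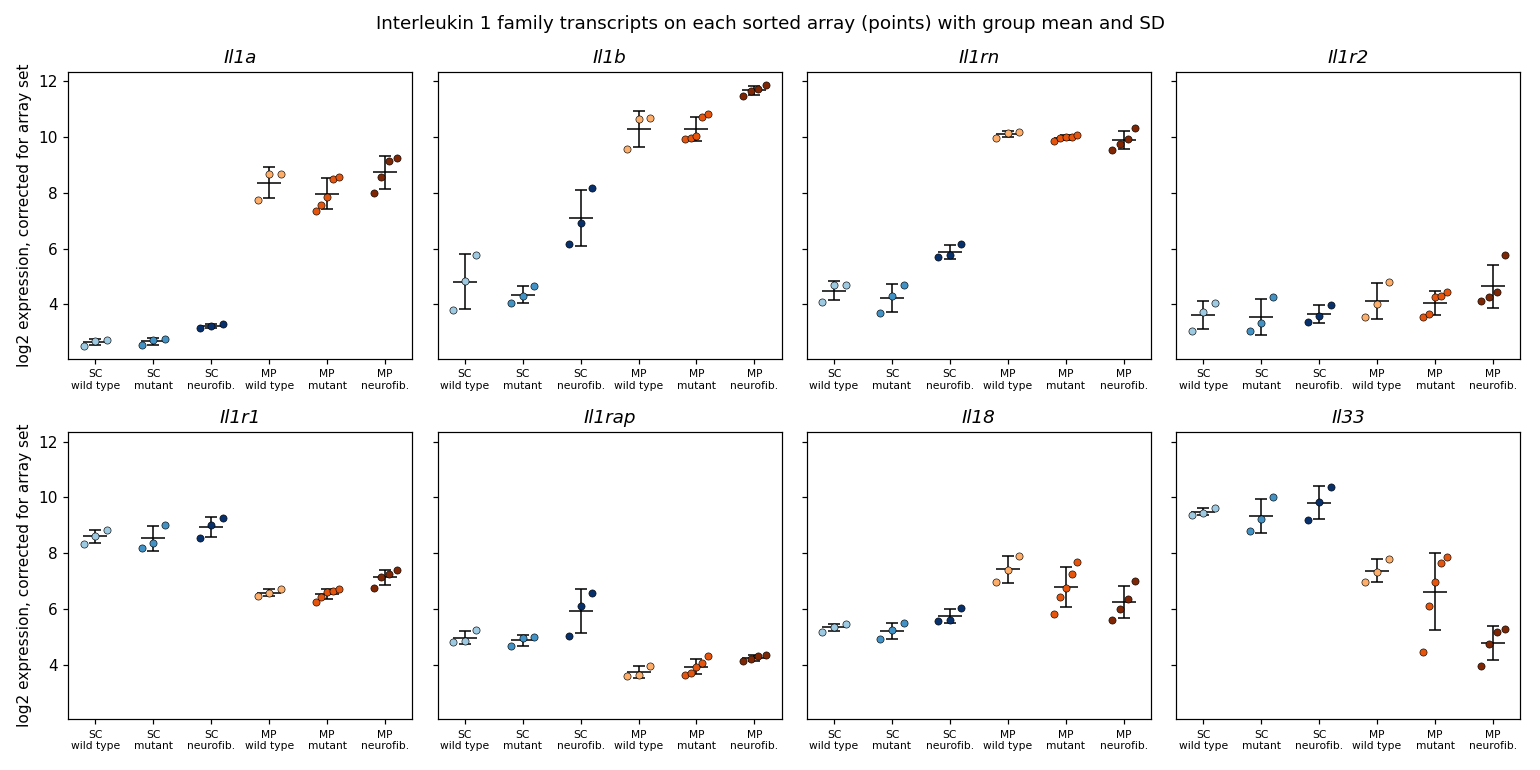
Log2 expression, corrected for array set, of the 8 members on each sorted array (points), by cell type and tissue, with the group mean and SD (bars). Il1a, Il1b and Il1rn are high in all 3 macrophage groups, Il1r1 and Il33 in all 3 SC groups, and Il33 in neurofibroma macrophages lies between 3.94 and 5.28.

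On corrected values Il1b, the agonist released through inflammasomes, was higher in neurofibroma than at 1 month in both cell types. In SCs it was 3.81, 5.79 and 4.83 in wild-type nerve, 4.06, 4.67 and 4.32 in mutant nerve, and 8.18, 6.18 and 6.93 in neurofibroma (arrays s4481, 7m_4486 and 7m_4992). After the correction all 3 neurofibroma SC arrays lay above all 6 arrays of 1-month SCs. On deposited values array 7m_4486, at 5.9, lay below wild-type array s2, at 6.12. The log2 difference from mutant nerve was 2.75 (SE 0.53, 6.72-fold, adjusted p = 0.0087) and from wild-type nerve 2.29 (SE 0.53, 4.88-fold, adjusted p = 0.0166). With the array set as a term, the differences were 2.71 (SE 0.93, adjusted p = 0.297) and 2.24 (SE 0.93, adjusted p = 0.405), so neither passed. Within label batch 2 alone the difference from wild-type nerve was 1.79 (SE 0.55, adjusted p = 0.0841). Macrophage markers, as a summed level, moved with it. Their summed log2 level was 9.78 to 10.40 in neurofibroma SCs, 8.74 to 9.12 in mutant nerve and 8.86 to 9.50 in wild-type nerve, and 6 of 19 passed the test as higher than in mutant nerve and none as lower on corrected values, and none was called with the array set as a term. Lyz2, a lysozyme gene of myeloid cells named here after its values were seen, had the largest of these differences at 3.21, and Adgre1, which encodes F4/80, differed by 1.28. Other markers moved less. Itgam, which encodes CD11b, averaged 3.04 in mutant nerve SCs and 3.25 in neurofibroma SCs, Csf1r 3.94 and 4.18, and C1qa 4.59 and 4.93. In neurofibroma the SC level of Il1b stood at -4.58 from the macrophage level on the log2 scale, and the median of the 19 macrophage markers stood at -4.87, with a range of -6.26 to 0.76. Of 13 neutrophil markers none was called in SCs of neurofibroma against mutant or wild-type nerve, where 5.63% and 6.47% of all genes were. Their summed log2 level was 7.18 to 8.21 in neurofibroma SCs, 7.1 to 7.44 in mutant nerve and 7.12 to 7.53 in wild-type nerve. The part of macrophage RNA in the SC values was not tested.

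In macrophages Il1b was 9.56, 10.65 and 10.69 in wild-type nerve, 9.92 to 10.81 (median 10.04) in the 5 mutant nerve arrays, and 11.87, 11.64, 11.72 and 11.49 in neurofibroma. The neurofibroma arrays did not overlap the 1-month arrays and varied least among themselves (SD 0.16, n = 4). The log2 difference was 1.38 from mutant nerve (SE 0.25, 2.61-fold, adjusted p = 0.000862) and 1.38 from wild-type nerve (SE 0.28, 2.61-fold, adjusted p = 0.00229). Both were 1.34 in the fit with the array set as a term (SE 0.89, adjusted p = 0.805, and SE 0.92, adjusted p = 0.677). With label batch as a term, the difference from mutant nerve was 0.61 (SE 0.58, adjusted p = 0.539). Mutant nerve macrophages carry label batch 1 and the other macrophages batch 2, so no macrophage array informs that term. It was estimated from the 1-month SC arrays and applied to the macrophages. Without wild-type array s4, the lowest of its group, the difference from wild-type nerve was 0.97 (SE 0.25, adjusted p = 0.00965), under 2-fold. Of the 13 neutrophil markers 2 were lower and none higher in neurofibroma macrophages than in either 1-month group. Of all genes 4.95% were called there against mutant nerve and 6.22% against wild-type nerve. The summed log2 level of the 19 macrophage markers was also higher in neurofibroma macrophages, at 14.53 to 14.71 against 13.93 to 14.1 at 1 month, with 4 markers called higher and 1 lower than in mutant nerve on corrected values. Its part in the Il1b values was not tested. The universal controls that set the shift of Il1b had deposited values of 2.94 and 2.37, far below the macrophage levels. The difference between SCs and macrophages in the change from mutant nerve was 1.37 (SE 0.58, adjusted p = 0.254), and from wild-type nerve 0.90 (SE 0.62, adjusted p = 0.449). The changes of Il1b in SCs and in macrophages were not shown to differ.

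Il1rn, the antagonist, departed from this pattern in macrophages. Its level there was 9.98 to 10.19 in wild-type nerve, 9.85 to 10.07 in mutant nerve and 9.54, 9.94, 10.34 and 9.76 in neurofibroma, with overlapping groups. The log2 difference of neurofibroma from mutant nerve was -0.09 (SE 0.14, adjusted p = 0.653). In SCs Il1rn was 4.09, 4.69 and 4.69 in wild-type nerve, 4.29, 4.68 and 3.7 in mutant nerve, and 6.15, 5.69 and 5.77 in neurofibroma, where every array lay above every 1-month array. The differences were 1.65 from mutant nerve (SE 0.26, 3.13-fold, adjusted p = 0.00365) and 1.38 from wild-type nerve (SE 0.26, 2.61-fold, adjusted p = 0.00682). With the array set as a term, they were 1.63 (SE 0.46, adjusted p = 0.168) and 1.37 (SE 0.46, adjusted p = 0.248). Without the arrays with seminal vesicle genes the difference from wild-type nerve was 1.87 (adjusted p = 0.0606), with 1 wild-type SC array left, whose spread is taken to be that of the other groups.

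The set shift cancels when the change in SCs is set against the change in macrophages, and Il1rn differed there. Tumour and age still coincide in this contrast. From mutant nerve to neurofibroma the SC change exceeded the macrophage change by 1.74 (SE 0.29, adjusted p = 0.00186), and the change from wild-type nerve by 1.60 (SE 0.30, adjusted p = 0.00374). In the fit with the array set as a term the adjusted p was 0.0032 and 0.0061, and both were called in every fit that left out 1 array, 15 against mutant nerve and 13 against wild-type nerve. Il1rn was the only member called in the difference from mutant nerve, where 2.12% of all genes were called, and 2 members were called in the difference from wild-type nerve, against 3.82% of genes. The latter lost its call without both wild-type macrophage arrays s5 and s6 (1.46, adjusted p = 0.0517), where s4 is the 1 wild-type macrophage array left and its spread is taken from the other groups. Of the 19 macrophage markers 2 were higher and 1 lower by the same measure against mutant nerve, with a median of 0.43. The SC level of Il1rn stood at -4.02 from the macrophage level in neurofibroma, and its relation to macrophage RNA in SC arrays was not tested.

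Il1a and Il1r2 showed little of this. Il1a was 2.52 to 2.77 on the 1-month SC arrays, where the lower quartile of all genes lay at 2.66 to 2.84, and 3.30, 3.15 and 3.22 in neurofibroma SCs. These groups did not overlap, but the difference from mutant nerve was 0.55 (SE 0.14, adjusted p = 0.0233), below 2-fold, and 0.57 with the array set as a term (SE 0.67, adjusted p = 0.909). In macrophages Il1a was 7.73, 8.68 and 8.69 in wild-type nerve, 7.34 to 8.57 (median 7.86) in mutant nerve and 7.99, 8.57, 9.14 and 9.26 in neurofibroma, with overlapping groups, and the difference of neurofibroma from mutant nerve was 0.77 (SE 0.32, adjusted p = 0.0719). Il1r2 lay at 3.05 to 4.26 on SC arrays and 3.55 to 5.77 on macrophage arrays, and its groups overlapped between all tissues of a cell type. Its highest value, 5.77, was from neurofibroma macrophage array s4441.

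Agonist was then set against antagonist within each array, as the log2 difference of Il1b and Il1rn relative to the wild-type mean of the same cell type. In neurofibroma macrophages it was 1.60 ± 0.39 (SD, n = 4), with a range of 1.20 to 2.14. Mutant nerve macrophages lay at 0.13 ± 0.49 (SD, n = 5), and their highest value, 0.78, did not reach that range. In neurofibroma SCs it was 0.90 ± 0.77 (SD, n = 3), with a range of 0.17 to 1.71 that overlapped the wild-type range of -0.60 to 0.78. The mean of both agonists against the mean of Il1rn and Il1r2 was 0.73 ± 0.47 in neurofibroma macrophages (range 0.06 to 1.16) and 0.72 ± 0.34 in neurofibroma SCs. These are descriptions of values that include the set correction.

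**Figure D2:**
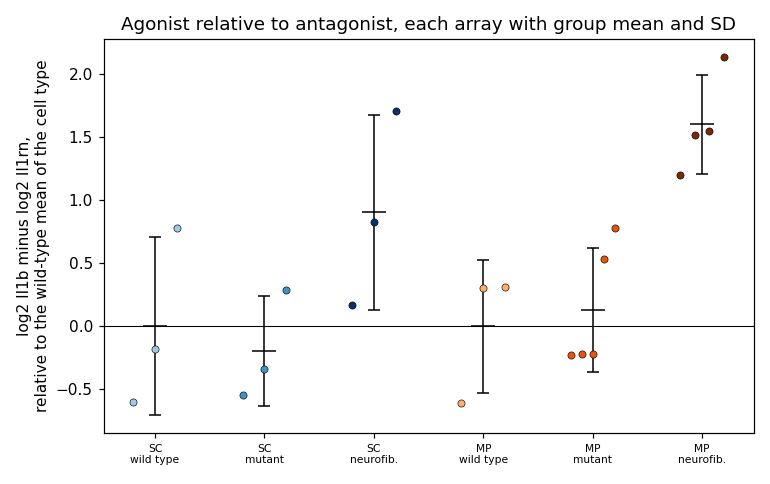
Log2 Il1b minus log2 Il1rn on each sorted array (points), relative to the mean of wild-type arrays of the same cell type, with group mean and SD (bars). The 4 neurofibroma macrophage arrays lie from 1.20 to 2.14, above all 1-month macrophage arrays.

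Across the 7-month comparisons, the corrected values called 2 members in SCs against mutant nerve (Il1b and Il1rn) with 5.63% of all genes called, and 2 against wild-type nerve (the same genes) with 6.47% called. In macrophages they called 2 against mutant nerve (Il1b and Il33), with 4.95% of genes called, and 3 against wild-type nerve (Il1b, Il18 and Il33), with 6.22% called. No member was called in any of these 4 comparisons by limma once the array set was a term, and the share of genes called was 0.23%, 0.311%, 0.225% and 0.207% in the same order. The 2 universal control arrays limit this fit. At an unadjusted p under 0.05 it had 1942, 2190, 1856 and 2196 genes.

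**Figure D3:**
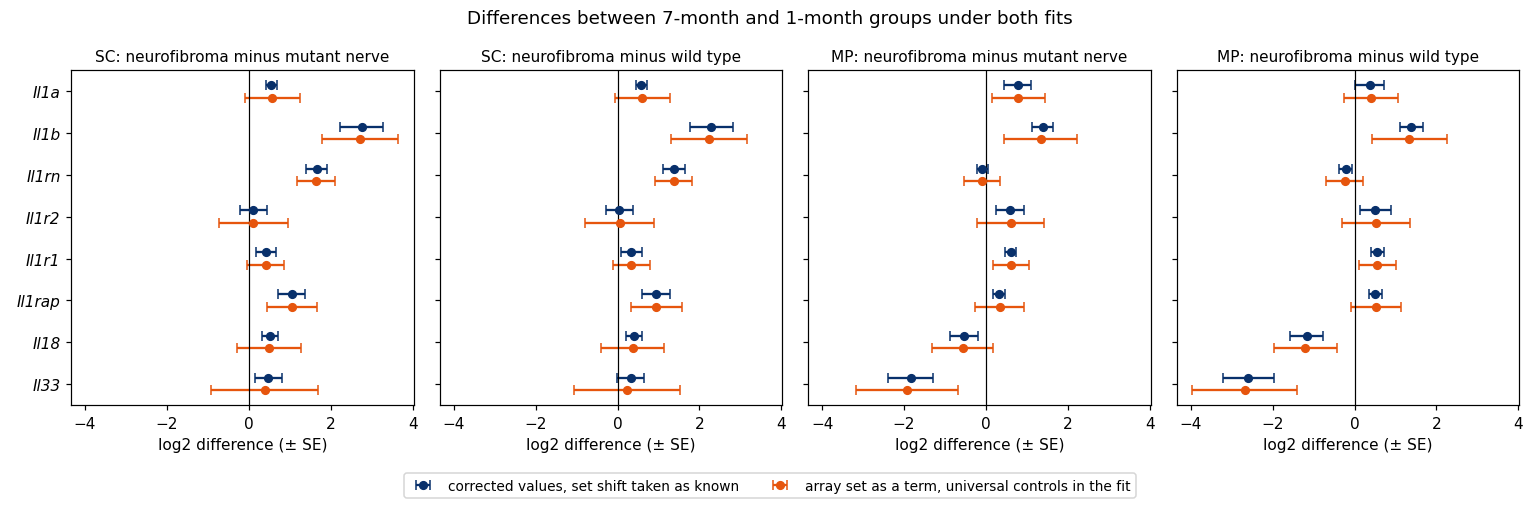
Log2 differences of neurofibroma from 1-month groups (points, with SE) for each member, in SCs (SC) and macrophages (MP), on corrected values with the set shift taken as known (blue) and with the array set as a term and the universal controls in the fit (orange). Point estimates nearly coincide, as for Il1b in SCs against mutant nerve (2.75 and 2.71), while the SE widens from 0.53 to 0.93. The orange fit also pools the spread over both cell types.

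Il1r1, the signalling receptor, was a transcript of the p75+ arrays in every tissue. It was 8.34, 8.82 and 8.63 in wild-type SCs, 8.18, 9.02 and 8.38 in mutant nerve and 9.25, 8.53 and 9.02 in neurofibroma. On macrophage arrays it was 6.47 to 6.70, 6.26 to 6.73 and 6.75 to 7.39. SCs exceeded macrophages by 2.01 in wild-type nerve (SE 0.22, 4.03-fold, adjusted p = 4.51e-07), 2.00 in mutant nerve (SE 0.19, adjusted p = 9.76e-08) and 1.80 in neurofibroma (SE 0.20, adjusted p = 5.6e-07). The SC groups overlapped between tissues, and in neurofibroma macrophages Il1r1 was 0.60 above mutant nerve (SE 0.14, adjusted p = 0.00474), under 2-fold, and 0.61 with the array set as a term (SE 0.43, adjusted p = 0.824). On corrected values the neurofibroma macrophage arrays did not overlap those of either 1-month group, narrowly so (lowest 6.75 against highest 6.73). Deposited values overlapped, at 6.24 to 6.87 in neurofibroma against 6.51 to 7.02 at 1 month. Fibroblast markers (11, 11 and 10 of 12) and endothelial markers (9, 6 and 9 of 9) were also higher on p75+ than on macrophage arrays. Which cells of the sort carried Il1r1 was not tested.

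Il1rap, the accessory chain, was also higher in SCs. It was 4.81 to 5.25 in wild-type SCs, 4.66 to 5.0 in mutant nerve and 6.12, 6.57 and 5.04 in neurofibroma (arrays s4481, 7m_4486 and 7m_4992), against 3.61 to 4.34 on all macrophage arrays. SCs exceeded macrophages by 1.24 (SE 0.26, adjusted p = 0.00106), 0.94 (SE 0.24, adjusted p = 0.00387) and 1.67 (SE 0.25, adjusted p = 1.87e-05) in wild-type nerve, mutant nerve and neurofibroma. The difference in mutant nerve stayed under 2-fold. In SCs, neurofibroma was 1.04 above mutant nerve (SE 0.33, adjusted p = 0.0536). The call depended on the fit. It was made with all 6 groups in 1 fit (1.04, SE 0.26, adjusted p = 0.00703), with label batch as a term (1.13, SE 0.28, adjusted p = 0.00746) and with array weights (1.17, SE 0.30, adjusted p = 0.0233). These fits also take the set shift as known. Array 7m_4992, which carried seminal vesicle genes, lay inside the wild-type range, and without it the difference was 1.58 (SE 0.23, adjusted p = 0.00369). Over all arrays with the array set as a term it was 1.05 (SE 0.62, adjusted p = 0.694). The other 2 clusters named Il1rap lay at group means of 1.86 to 2.80, around or under the lower quartile of all genes. Averaged over its 3 clusters, Il1rap was higher in SCs by 0.54 (SE 0.14) in wild-type nerve and 0.68 (SE 0.13) in neurofibroma, under 2-fold.

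Il18, a ligand that caspase-1 matures like IL-1β, was a macrophage transcript at 1 month. In macrophages it was 6.95, 7.91 and 7.38 in wild-type nerve, 5.82 to 7.69 (median 6.75) in mutant nerve and 6.36, 7.00, 6.01 and 5.62 in neurofibroma. The lowest wild-type value lay just under the highest neurofibroma value. The difference of neurofibroma from wild-type nerve was -1.17 (SE 0.40, adjusted p = 0.0362). It did not pass with the array set as a term (-1.20, SE 0.76, adjusted p = 0.644), nor in 5 of 7 fits that each left out 1 array. With s4 as the 1 wild-type macrophage array it was -0.65 (SE 0.59, adjusted p = 0.492), a fit in which the spread of that group is taken from the others. SCs were below macrophages by -2.08 in wild-type nerve (SE 0.37, adjusted p = 0.000192) and -1.57 in mutant nerve (SE 0.33, adjusted p = 0.000968) on the log2 scale. In neurofibroma the difference was -0.51 (SE 0.35, adjusted p = 0.402). The difference in wild-type nerve did not pass without the 5 arrays with seminal vesicle genes (-1.42, SE 0.68, adjusted p = 0.173). The change of this difference from wild-type nerve was 1.57 (SE 0.51, adjusted p = 0.0761), so it was not called.

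Il33, the alarmin, was a transcript of the p75+ arrays. These arrays also held fibroblast markers above the macrophage level, and which cells of the sort carried Il33 was not tested. Il33 was 9.63, 9.37 and 9.45 in wild-type SCs, 9.21, 10.0 and 8.78 in mutant nerve and 10.37, 9.19 and 9.85 in neurofibroma, with overlapping groups. The difference of neurofibroma from mutant nerve in SCs was 0.47 (SE 0.33, adjusted p = 0.357). The lack of a call depended on the set correction. After centring deposited values on array medians, Il33 was called higher in neurofibroma SCs. The difference was then 1.39 from mutant nerve (SE 0.32, adjusted p = 0.0147) and 1.2 from wild-type nerve (SE 0.32, adjusted p = 0.028). On corrected values none of the 6 fits that each left out 1 array called it in either comparison. SCs exceeded macrophages by 2.11 in wild-type nerve (SE 0.60, 4.33-fold, adjusted p = 0.0105), 2.72 in mutant nerve (SE 0.54, 6.57-fold, adjusted p = 0.000515) and 5.02 in neurofibroma (SE 0.56, 32.5-fold, adjusted p = 5.32e-07). With s4 as the 1 wild-type macrophage array the first was 2.14 (SE 0.88, adjusted p = 0.0965), a nearly unchanged difference with a wider SE.

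On macrophage arrays Il33 was 7.34, 7.79 and 6.97 in wild-type nerve, 6.96, 6.12, 4.46, 7.87 and 7.65 in mutant nerve (arrays s11 to s15) and 5.16, 4.74, 5.28 and 3.94 in neurofibroma. Mutant nerve array s13 lay within the neurofibroma range. The difference of neurofibroma was -1.84 from mutant nerve (SE 0.55, 3.57-fold, adjusted p = 0.0202) and -2.59 from wild-type nerve (SE 0.63, 6.01-fold, adjusted p = 0.00669). In the fit with the array set as a term it was -1.93 (SE 1.24, adjusted p = 0.788) and -2.68 (SE 1.28, adjusted p = 0.502). The difference from mutant nerve did not pass without neurofibroma array 7m_4486 (-1.64, SE 0.60, adjusted p = 0.0539), nor with label batch as a term (-2.14, SE 0.83, adjusted p = 0.105). That batch term again came from the 1-month SC arrays only. After centring deposited values on array medians the differences were -0.93 (adjusted p = 0.246) and -1.62 (adjusted p = 0.0826). The change from wild-type nerve differed between SCs and macrophages by 2.91 (SE 0.83, adjusted p = 0.0437), which did not pass in any of 13 fits that each left out 1 array, and that from mutant nerve differed by 2.31 (SE 0.78, adjusted p = 0.13), or by 2.92 (SE 0.53, adjusted p = 0.00388) without mutant nerve macrophage array s13.

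Fibroblast markers on the macrophage arrays moved with Il33. Their summed log2 level was 8.73 to 9.33 in neurofibroma and 11.19 to 11.69 in wild-type nerve. On mutant nerve array s13, with the lowest Il33 of its group, it was 8.99, and on the other mutant nerve arrays 10.84 to 11.69. In neurofibroma 8 of 12 fibroblast markers were called lower and 1 higher than in mutant nerve, and 9 lower than in wild-type nerve. Of 13 SC markers, 7 were lower than in mutant nerve. None of these fibroblast markers was called with the array set as a term. On SC arrays the summed fibroblast level spanned 12.84 to 13.14 although 6 of the 12 were called lower and 1 higher in neurofibroma than in mutant nerve. The part of fibroblast or SC RNA in the macrophage values of Il33 was not tested.

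**Figure D4:**
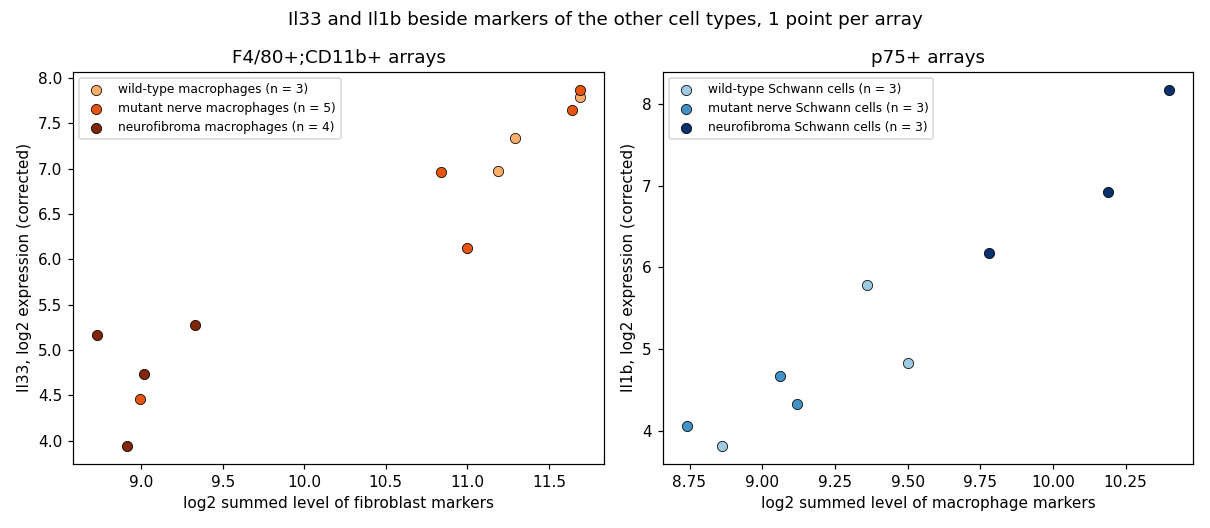
Left, log2 Il33 against the log2 summed level of 12 fibroblast markers on the 12 F4/80+;CD11b+ arrays. Right, log2 Il1b against the log2 summed level of 19 macrophage markers on the 9 p75+ arrays. Each point is 1 array, coloured by tissue, with values corrected for array set. Mutant nerve macrophage array s13 (Il33 4.46, fibroblast markers 8.99) lies with the neurofibroma arrays, and the 3 neurofibroma SC arrays have the highest Il1b and the highest macrophage marker levels of the p75+ arrays.

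At 1 month the genotype of the nerve made no called difference. No member was called in SCs or in macrophages between mutant and wild-type nerve, with 0% of all genes called in each comparison by limma. At an unadjusted p under 0.05 there were 1623 genes in SCs and 3663 in macrophages. With the array set as a term 1 gene was called in SCs and none in macrophages, and without wild-type macrophage array s4 there were 78 genes called in macrophages, none of them a member. The log2 differences of the members ran from -0.46 (Il1b, SE 0.53) to 0.03 (Il1a, SE 0.14) in SCs and from -0.75 (Il33, SE 0.60) to 0.19 (Il1rap, SE 0.15) in macrophages. In macrophages genotype and label batch cannot be told apart.

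Of 17 measured genes of interleukin 1 processing and release, 8, 8 and 9 were lower and 1, 0 and 2 higher in SCs than in macrophages of wild-type nerve, mutant nerve and neurofibroma, where 14%, 13% and 12.4% of all genes were called. Nlrp3, the inflammasome sensor, differed most, with -4.21 (SE 0.15), -4.70 (SE 0.13) and -5.12 (SE 0.14). In macrophages the corrected values called Nlrp3 (1.10, SE 0.12, adjusted p = 3.2e-05) and Mefv, which encodes the inflammasome protein pyrin (1.31, SE 0.20, adjusted p = 0.000269), higher in neurofibroma than in mutant nerve, and none lower. None of the 17 was called there with the array set as a term. In SCs Casp1, encoding the protease that matures IL-1β and IL-18, was the 1 gene of the 17 called, a share near the 5.63% of all genes, at 1.86 above mutant nerve (SE 0.20, adjusted p = 0.00087) and 1.21 above wild-type nerve (SE 0.20, adjusted p = 0.00417). With the array set as a term it was called against mutant nerve (1.89, SE 0.34, adjusted p = 0.0182) and not against wild-type nerve (1.25, SE 0.34, adjusted p = 0.13). Its change differed between the cell types by 1.24 against mutant nerve (SE 0.21, adjusted p = 0.0025) and by 0.83 against wild-type nerve (SE 0.22, adjusted p = 0.0331), the latter under 2-fold and not called. Of the 17, 1 was called higher in SCs and 1 lower by this measure against mutant nerve, beside 2.12% of all genes. Against wild-type nerve 0 were higher and 1 lower, beside 3.82%. The lowest values of the list were -1.51 and -1.44, and the counts were the same with the array set as a term.

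Of 31 measured genes listed as induced by interleukin 1, 8 were called higher and none lower in neurofibroma SCs than in mutant nerve, where 5.63% of all genes were called, with a median difference of 0.63 beside -0.045 over all genes. They were led by Vcam1, a leukocyte adhesion molecule (2.46, SE 0.22), Cxcl2, a neutrophil chemokine (2.31, SE 0.26), the cytokine gene Lif (2.30, SE 0.28) and Csf2, which encodes GM-CSF (1.95, SE 0.56). Against wild-type nerve 5 were higher and 1, Mmp3, lower. Of the 31 genes 2 remained called with the array set as a term, Cxcl2 (2.30, SE 0.39, adjusted p = 0.0103) and Tnfaip3, which encodes the NF-κB inhibitor A20 (1.73, SE 0.27, adjusted p = 0.00338). In macrophages 1 gene, Tnip1, was higher (1.3, SE 0.18) and 2 were lower than in mutant nerve, the chemokine gene Cxcl1 (-2.5, SE 0.47) and Csf3, encoding G-CSF (-1.24, SE 0.36), with a list median of -0.11 and 4.95% of all genes called. None of the 31 was called there with the array set as a term. Against mutant nerve the change differed between SCs and macrophages for 6 of the 31 genes, all higher in SCs, beside 2.12% of all genes. Against wild-type nerve 6 were higher and 1, Mmp3, lower (-1.17, SE 0.24), beside 3.82% of all genes. The largest against mutant nerve were Cxcl1 (3.35, SE 0.70, adjusted p = 0.0106), Cxcl2 (2.52, SE 0.24, adjusted p = 1.22e-05) and Csf2 (2.26, SE 0.56, adjusted p = 0.0312), and 4 of those 6 were called with the array set as a term. Many inputs other than interleukin 1 induce these genes, and Vcam1 is also an endothelial gene. The summed log2 level of 9 endothelial markers was 10.5 to 12.41 in neurofibroma SCs and 9.36 to 10.76 in 1-month SCs, and the part of endothelial or macrophage RNA in these values was not tested.

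**Figure D5:**
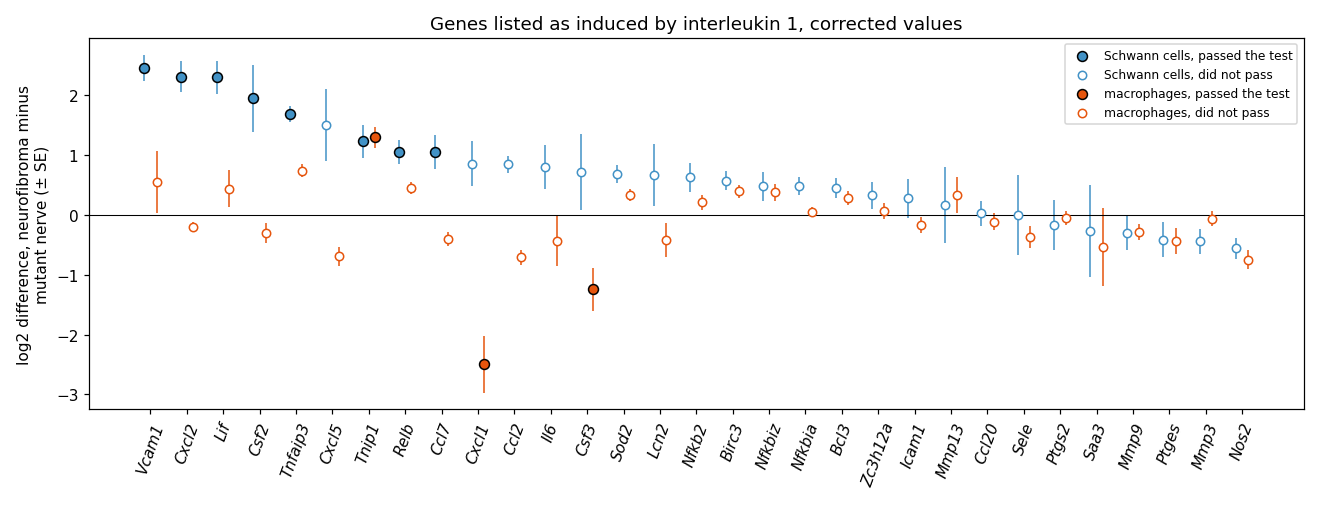
Log2 differences of neurofibroma from mutant nerve, on corrected values, for the 31 genes listed as induced by interleukin 1 in SCs (blue) and macrophages (orange), with SE. Filled points passed the test, 8 higher in SCs and 1 higher and 2 lower in macrophages.

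Of 16 measured genes of receptor signal transduction, Irak2, a kinase adaptor of the receptor complex, was higher in neurofibroma SCs than in mutant nerve (1.33, SE 0.30, adjusted p = 0.0163) and Tab1, an activator of TAK1, lower (-1.13, SE 0.17, adjusted p = 0.00269). In macrophages Irak3, which encodes the inhibitory IRAK-M, was 1.10 higher (SE 0.22, adjusted p = 0.00166). Against wild-type nerve 2 of the 16 were higher and 1 lower in SCs, and likewise in macrophages. The share of all genes called was 5.63% and 6.47% in SCs and 4.95% and 6.22% in macrophages, against mutant and wild-type nerve. None of the 16 was called in these comparisons with the array set as a term. Among 7 measured other receptors and regulators of the family, Il18bp, the secreted trap for IL-18, was 1.02 higher in neurofibroma macrophages than in mutant nerve (SE 0.17, adjusted p = 0.000707), and was not called with the array set as a term. Il1rl2, the receptor of IL-36, differed between SCs and macrophages by 2.05 in neurofibroma (SE 0.28, adjusted p = 6.73e-06), against 0.55 in mutant nerve (SE 0.27, adjusted p = 0.139). The difference between these values, 1.5, had an adjusted p of 0.0395, or 0.0577 with the array set as a term. By this measure 1 of the 7 was higher in SCs against mutant nerve, beside 2.12% of all genes. Against wild-type nerve 1 was higher and 1 lower, beside 3.82%. In neurofibroma against wild-type nerve 1 of the 7 was called higher in SCs and none in macrophages. Il1f10 was the 1 other ligand measured and was not called in any comparison. The IL-33 receptor gene Il1rl1 and the IL-36 ligand genes were not analysed here.

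The genes most like each member over the 21 sorted arrays are given with Pearson's r, as a description of points that share cell type and array set. Il1b was most like Slamf7 (r = 0.986), Sod2 (r = 0.982) and Spic (r = 0.979), Il1a like Ms4a6c (r = 0.987), Msr1 and Clec4e (r = 0.985 each), and Il1rn like Clec4d (r = 0.991), Ms4a7 (r = 0.991) and Slfn2 (r = 0.99). Msr1 encodes a macrophage scavenger receptor, and Sod2 a mitochondrial superoxide dismutase. Il33 was most like Gpc3 (r = 0.988), Prelp (r = 0.98) and Mmp2 (r = 0.98), which encode a glypican, a matrix proteoglycan and a gelatinase. Il1r1 was most like Hdx (r = 0.962), Prkg1 (r = 0.961) and Vgll4 (r = 0.959), and Il1rap like Sema3e (r = 0.948), Mamld1 (r = 0.939) and Tnik (r = 0.936). Il18 was most like F10 (r = 0.892), Lyz1 and Mmp8 (r = 0.889 each). Il1r2 had the weakest likeness, to Kynu (r = 0.784), P2ry10 and F9 (r = 0.777 each).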

How the data were processed

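RNA of sorted SCs and macrophages was hybridised to Affymetrix Mouse Gene 2.0 ST arrays. The authors summarized probes with RMA in Affymetrix Expression Console 1.3.1.187 (mm10), and deposited log2 values for 41345 transcript clusters. Of these clusters, 23521 carried 1 gene symbol, 1820 several and 16004 none. For each of 22180 genes, 1 cluster was kept, that of highest mean across sorted samples. Gene positions and promoter sequences come from RefSeq (GRCm38.p6), through Entrez identifiers, which 21994 of the genes matched.

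The deposited values fall into 2 array sets that coincide with age: 15 arrays have medians of 3.74 to 3.88 and 8 arrays medians of 2.92 to 3.04. Each set holds 1 universal control array, and the universal controls correlated with r = 0.955. ComBat, written out in R 4.3.3, removed the set difference, keeping the groups as covariates. Groups were taken from the array titles, and the sets from the sample names in the titles, which do not follow the batch named there. limma 3.58.1 was then fitted per cell type over 3 groups, and over all 6 groups for comparisons between cell types, with Benjamini-Hochberg adjustment over all genes. Calls needed more than 2-fold change and an adjusted p below 0.05. ComBat followed by limma takes the shift between sets as known. Comparisons of ages were therefore repeated on the deposited values with the array set as a term and the universal controls in the fit. That fit held all groups together and shared their spread. The scripts were tested on simulated data, where the test on corrected values called many unchanged genes between the sets, unlike the fit with the array set as a term and the comparisons of cell types. Tumours s4481 and 7m_4486 gave both cell types. By their shared numbers in the titles these arrays are paired, and their deviations from the group means correlated with r = 0.04 and 0.09.

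The members and the gene lists were chosen with earlier results of these data known. The genes named are the 8 members, the 3 genes most like each member by Pearson's r over the 21 sorted arrays, up to 4 called genes of each pathway list with the largest change in a comparison, and the sorting markers. Figures were drawn with matplotlib 3.10.9. Alternatives varied the set correction, normalization, fit, label batch, minimum fold, transcript cluster and arrays included.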

Additional observations from a re-analysis of the deposited data

Results flagged for a closer look

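For Il1rn the change towards neurofibroma in SCs exceeded that in macrophages, by 1.74 against mutant nerve and by 1.6 against wild-type nerve (adjusted p = 0.00186 and 0.00374, limma). It is listed here because the test of the difference between the cell types passed. All 3 neurofibroma SC arrays lay above all 1-month SC arrays, and the macrophage groups overlapped. The change of Il33 from wild-type nerve differed between the cell types by 2.91 (adjusted p = 0.0437), and it is listed for the same reason. The call was lost when any of the 13 arrays was left out. In the groups of 4 and 5 macrophage arrays, none of 16 combinations of member and group held an array apart from the rest by Dixon's criterion. The groups of 3 arrays were not tested.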

How the results depend on the processing

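Members were followed through 88 results, 8 genes in 11 comparisons, under the alternatives. Of the values obtained, 1663 kept their side of the threshold, 59 lost the call, 26 gained it and 4 reversed. A value that was not called under either setting counted as kept even where its sign changed. With the array set as a term, the count of members called was 0 in the 4 comparisons of neurofibroma with 1-month SCs or macrophages, in place of 2, 2, 2 and 3, and 1 in place of 2 in the difference between cell types against wild-type nerve. With label batch 2 alone, 1 member, Il1rn, was called in neurofibroma SCs against wild-type nerve, and Il1b was not (1.79, adjusted p = 0.0841). In SCs, centring deposited values on array medians added a call of Il33 against mutant nerve and against wild-type nerve. In macrophages, centring on array medians or quantile normalization of deposited values left 1 call against mutant nerve and 1 against wild-type nerve, with Il1b kept in each. The label batch as a term, which only the 1-month SC arrays inform, left 0 against mutant nerve. Without a minimum fold, 5 members passed in macrophages against wild-type nerve. Without wild-type macrophage arrays s5 and s6, 1 passed there, and 0 in the difference against wild-type nerve. That difference had 1 call without any correction, with centring, with quantile normalization, with the label batch as a term and with array weights. An alternative chosen after seeing the data left out all 5 arrays with seminal vesicle genes. It gave 1 call in neurofibroma SCs and 1 in macrophages against wild-type nerve, and 2 and 1 in the differences between cell types against mutant and wild-type nerve (Il1rap was gained in the former). Leaving out 1 array at a time gave 1 to 2 calls in macrophages against mutant nerve, where array 7m_4486 decided Il33, and 1 to 2 in each difference between cell types. The reversed values all came from deposited values without correction: Il1r2 at -1.46 and -1.52 in SCs against mutant and wild-type nerve, and Il1a at -1.16 and Il1r2 at -1.05 in macrophages against wild-type nerve. There the sets differ in overall level by construction. The other causes were not tested. With the tumours that gave both cell types as a replicate block, 6 members were called between SCs and macrophages of neurofibroma, as without the block. Over all genes, the 4 comparisons of neurofibroma with 1-month groups called 1248, 1434, 1099 and 1380 genes, and 51, 69, 50 and 46 with the array set as a term, 5496, 5390, 5057 and 5831 without correction, and 3645, 4062, 7719 and 7864 without a minimum fold. Without a minimum fold the comparisons of cell types called 7171, 6486 and 5127 genes in place of 3099, 2887 and 2751. The difference against mutant nerve called 471 genes, 306 with quantile normalization and 281 with label batch as a term, and that against wild-type nerve 848 and 542 with quantile normalization. Without the 5 arrays with seminal vesicle genes, SCs against wild-type nerve had 559 genes and the latter difference 490. Il1a in SCs lies near the lower quartile of all genes, and low levels limit what its fold can show.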
